A study of Mus musculus with 4 samples.

Results

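The genes described here move phosphate and pyrophosphate across membranes or make and break pyrophosphate outside the cell, and they were followed over osteoclast formation in culture. The set holds 7 genes, chosen by the intensities of Xpr1 and Ank on these same arrays, where both were higher at every step, and completed with genes of the same transport. Of the 7 genes, 6 were found among the 18193 genes with a probe set that carries exactly 1 symbol, with 15 probe sets between them. Enpp1 was not analysed here. Because the arrays described below also chose the members, every value is a description.

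The samples were 4 single-colour expression arrays, 1 for each stage, from bone marrow of 8 to 10 week old C57BL/6 mice. Bone marrow macrophages (BMM) had grown for 3 days with M-CSF, a macrophage growth factor, at 100 ng/ml. Pre-osteoclasts (pOC) had received M-CSF and the osteoclast-inducing cytokine RANKL, each at 100 ng/ml, for 2 further days, and were mononuclear cells positive for TRAP, a phosphatase of osteoclasts. Mature multinucleated osteoclasts had 2 more days with both cytokines, grown on plastic in the mOCp group and on dentin slices, which they resorb, in the mOCd group. All 4 groups carried M-CSF, and no array holds cells kept for the same time without RANKL, so an effect of RANKL and one of time cannot be told apart. Each group is 1 array, so there is no replicate, no test between groups and no standard error. Whether an RNA came from 1 animal or from a pool is not given in the sources used here. In RNA from whole cultures, fewer cells of a type and less RNA per cell cannot be told apart.

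Phosphate enters most mammalian cells through the sodium-coupled importers encoded by Slc20a1 and Slc20a2, and it leaves through XPR1, the phosphate exporter of animal cells. Pyrophosphate outside the cell inhibits the growth of bone mineral. ENPP1 makes it from ATP, the membrane protein encoded by Ank raises its level outside the cell, and the alkaline phosphatase encoded by Alpl cleaves it to phosphate. Osteoclasts dissolve mineral and so meet large amounts of freed phosphate.

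The promoters of Xpr1 and Ank, around which the set was built, of the importer Slc20a1 and of Kidins220, the partner gene described below, are shown so that their sequences can be compared. Each is the stretch of 250 bases before a RefSeq start site in build GRCm38.p6, read 5′ to 3′ along the gene, at chr1:155417445-155417694 on the minus strand for Xpr1, and on the plus strand at chr15:27466427-27466676 for Ank, chr2:129198523-129198772 for Slc20a1 (the more upstream of 2 listed) and chr12:24974682-24974931 for Kidins220. Capitals mark the letters that matched a searched motif.
Xpr1: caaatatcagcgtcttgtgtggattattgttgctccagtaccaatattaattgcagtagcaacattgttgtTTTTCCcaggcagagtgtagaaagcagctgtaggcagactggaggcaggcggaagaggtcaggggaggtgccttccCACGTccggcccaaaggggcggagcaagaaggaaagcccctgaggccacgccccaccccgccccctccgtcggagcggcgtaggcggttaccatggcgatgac
Ank: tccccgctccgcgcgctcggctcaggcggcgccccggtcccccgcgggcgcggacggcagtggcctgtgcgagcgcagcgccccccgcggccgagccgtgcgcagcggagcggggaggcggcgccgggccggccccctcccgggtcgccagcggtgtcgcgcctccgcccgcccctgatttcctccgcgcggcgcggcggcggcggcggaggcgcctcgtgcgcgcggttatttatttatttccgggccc
Slc20a1: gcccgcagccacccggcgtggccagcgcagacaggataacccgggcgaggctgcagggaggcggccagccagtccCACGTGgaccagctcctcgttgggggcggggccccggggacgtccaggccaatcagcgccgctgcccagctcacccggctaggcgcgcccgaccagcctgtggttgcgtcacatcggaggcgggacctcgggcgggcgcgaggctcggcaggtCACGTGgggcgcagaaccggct
Kidins220: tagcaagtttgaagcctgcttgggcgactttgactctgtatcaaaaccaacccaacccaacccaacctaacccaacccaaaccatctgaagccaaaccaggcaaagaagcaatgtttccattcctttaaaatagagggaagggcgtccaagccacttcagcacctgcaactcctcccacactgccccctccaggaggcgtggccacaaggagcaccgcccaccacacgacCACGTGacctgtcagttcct

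The motifs, searched on both strands, were AP-1 (TGANTCA), CRE (TGACGTCA), E-box (CACGTG), PU.1 (GAGGAAG), NFAT (GGAAAA) and HIF (ACGTG). The HIF letters lie inside the E-box letters, so each E-box also counts as a HIF match. The Xpr1 window held 1 NFAT match and 1 HIF match, both on the strand opposite to the printed one, so that they read ttttcc and cacgt there. The Ank window held none of the 6 motifs, and 81.2% of its bases were G or C, against a median of 52.4% over 32851 windows of the same length. Kidins220 had 1 E-box, which began 20 bases before the start site, and Slc20a1 had 2. Over all 32851 windows the NFAT letters occurred in 20.4%, the HIF letters in 16.6%, PU.1 in 10.6%, AP-1 in 6.75%, the E-box in 6.02% and CRE in 1.55%. Xpr1 and Ank thus shared no searched motif in these windows. A match describes the letters and is no evidence that a factor binds.

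Intensities are the authors' linear MAS5 signals, whose trimmed mean is the same on every array. Values under the median of the non-control probe sets of an array are treated as its floor, which lay at 12.7 in BMM, 14.5 in pOC, 14.8 in mOCp cultures and 15.8 in mOCd. The text speaks of a counted difference where a gene passed 2-fold and its brighter value reached the 75th percentile of that array, which lay between 77.8 and 87.0. Each gene is represented by its brightest probe set. The disagreement between probe sets of a gene was 0.41 to 0.54 on the log2 scale, depending on the comparison. This value is the SD of differences from the brightest probe set, divided by the square root of 2. It is the remaining guide to error, but probe sets share the same cultures and arrays, so it holds no variation between cultures. A gene is called measured where it exceeded the floor on at least 1 array. All 10 osteoclast markers exceeded the floor in pOC, mOCp and mOCd, against 5 in BMM. Of 10 osteoblast and stromal markers with a probe set, 2 to 3 exceeded the floor on each array, with summed intensities between 78.0 in BMM and 314.4 in pOC. Dcn alone among them reached the 75th percentile, in pOC and mOCd. Macrophage markers, 9 of 10 with a probe set, summed to 26487.3 in BMM, 10710.3 in pOC, then 18079.1 in mOCp and 15721.6 in mOCd. Csf1r, at 5815.9 in BMM and 7644.1 in mOCd, and Cd68, at 4155.4 and 7367.1, made up most of the later sums. Of the 9 markers, 7 were counted as lower in pOC than in BMM, with a median log2 ratio of −4.61 over all 9. Against BMM, mOCp had 6 counted as lower and 1, Cd68, as higher, and mOCd had 7 as lower. In mOCp 4 were counted as higher than in pOC, and the same 4 were counted as lower in mOCd than in mOCp. Neutrophil markers summed to 340.8 in BMM, 853.8 in pOC, 1892.8 in mOCp cultures and 971.6 in mOCd, and the part of either list in the results was not tested.

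Intensities of Xpr1, which encodes the phosphate exporter, were 138.6 in BMM, 1546.4 in pOC, then 3152.5 in mOCp and 5134.1 in mOCd on its brightest probe set, 1426992_at. The lowest value was in macrophages and the highest in osteoclasts on dentin. In pOC it was 11.2-fold higher than in BMM (log2 ratio 3.48), a ratio that ranked 74 from the top among 7254 genes bright enough to be counted. In mOCp it was 2.04-fold higher than in pOC (log2 ratio 1.03), just past the 2-fold limit, and it fell under that limit after median scaling, quantile normalization, loess or scaling to the spike-in controls, and with the mean over probe sets (log2 ratios 0.45 to 1.00). In mOCd it was 3.32-fold higher than in pOC (log2 ratio 1.73), which ranked 258 of 7230 genes, but with the mean over probe sets the log2 ratio was 0.66 and the gene was not counted. Over the whole course it was 37.0-fold higher in mOCd than in BMM and 22.7-fold higher in mOCp than in BMM. With the mean over probe sets these log2 ratios were 3.49 for mOCd and 3.28 for mOCp, in place of 5.21 and 4.51. Over the 6 probe sets above the floor on all arrays they ran from 2.74 to 5.21 for mOCd, with the printed probe set the highest, and from 1.42 to 4.74 for mOCp. These comparisons share arrays and are not independent of each other.

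Ank, whose product raises extracellular pyrophosphate, was measured by 1 probe set, 1450627_at. Its intensity was 364.2 in BMM, 2131.8 in pOC, 2798.7 in mOCp cultures and 3920.5 in mOCd, so it too was lowest in macrophages and highest on dentin. The larger part of the difference lay in the first step, where pOC was 5.85-fold higher than BMM (log2 ratio 2.55, rank 152 of 7254). In mOCp it was 1.31-fold higher than in pOC (log2 ratio 0.39), less than the disagreement between probe sets of 0.41, and with the spike-in scaling the sign turned (log2 ratio −0.04). In mOCd it was 1.84-fold higher than in pOC and 1.40-fold higher than in mOCp, and neither was counted. Against BMM, Ank was 10.8-fold higher in mOCd and 7.68-fold higher in mOCp.

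**Figure D1:**
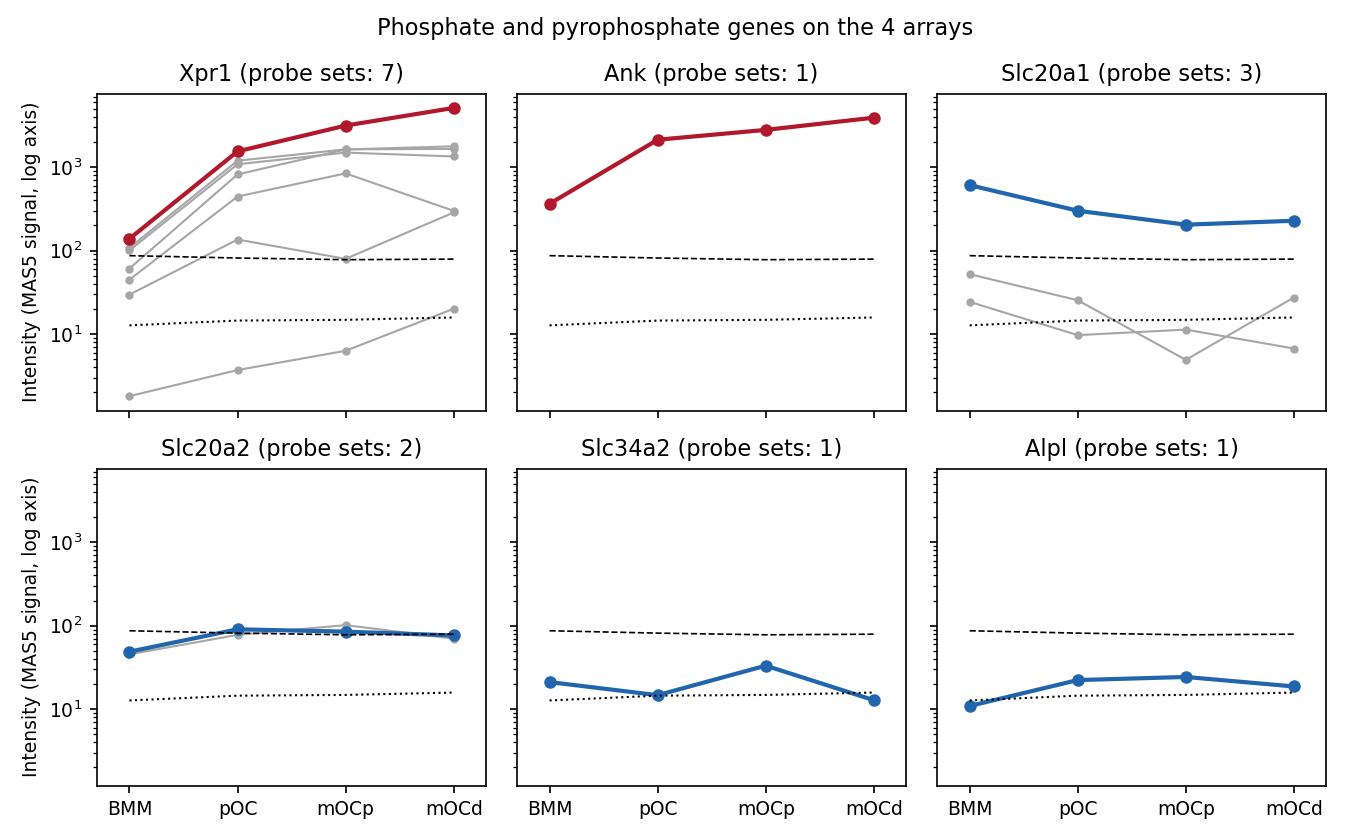
Intensity (MAS5 signal, log axis) of 6 genes on the 4 arrays, with the brightest probe set as the thick coloured line, other probe sets of the gene in grey, the floor as a dotted line and the 75th percentile as a dashed line. Xpr1 lies at 5134.1 in mOCd against 138.6 in BMM and Ank at 3920.5 in mOCd against 364.2 in BMM, with the step of Ank to mOCp turned round under spike-in scaling, while Slc34a2 and Alpl stay near the floor.

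Slc20a1, which encodes the phosphate importer PiT-1, went the other way. Its intensity was 609.0 in BMM, 300.5 in pOC, then 204.6 in mOCp and 227.9 in mOCd on probe set 1448568_a_at. Macrophages had the highest value, and the arrays of mature cells the lowest. The log2 ratio of pOC to BMM was −1.02 (2.03-fold lower), just past the limit, and it was no longer counted under 4 alternatives (log2 ratios −0.85 to −1.04, the last on a probe set too dim to count). The gene was 2.98-fold lower in mOCp than in BMM and 2.67-fold lower in mOCd than in BMM, while mOCd and mOCp differed by 0.16 on the log2 scale, less than the disagreement between probe sets of 0.46. A dimmer probe set of Slc20a1 had 52.2 in BMM and 25.4 in pOC, a log2 ratio of −1.04, and the third was under the floor on every array but BMM.

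Slc20a2, which encodes the other importer of this family, PiT-2, had 48.8 in BMM, 90.5 in pOC, 84.9 in mOCp cultures and 76.4 in mOCd. The value in macrophages was the lowest, and the 3 later arrays lay close together. The log2 ratio of pOC to BMM was 0.89 (1.85-fold higher) and was not counted, although it passed 2-fold with spike-in scaling. The further probe set had 45.4, 77.7, 101.7 and 69.9 in the same order, and the 2 disagreed on the sign of mOCp against pOC (log2 ratios −0.09 and 0.39). In pOC, then, the PiT-2 transcript stood higher than in BMM and the PiT-1 transcript lower, on each probe set of the 2 genes above the floor on both arrays.

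Slc34a2 encodes a sodium-coupled phosphate importer best known from gut and lung epithelium. It had 21.1 in BMM, 14.7 in pOC, then 33.2 in mOCp and 12.8 in mOCd, the last under the floor, and it did not reach the 75th percentile on any array. Alpl, the phosphatase that marks osteoblasts and cleaves pyrophosphate, had 10.9 in BMM, which is under the floor, 22.3 in pOC, 24.3 in mOCp cultures and 18.7 in mOCd. Both genes were too dim to be counted in any comparison. Of the osteoblast and stromal markers, Ibsp, Col1a1, Col3a1 and Lum were under the floor on all 4 arrays. Sp7 exceeded it on all 4, at 15.6 in BMM, 27.7 in pOC, then 17.4 in mOCp and 23.0 in mOCd. Dcn had 8.8 in BMM, 196.1 in pOC, 55.0 in mOCp cultures and 127.3 in mOCd, and Col1a2 exceeded the floor in BMM and pOC, at 18.8 and 31.5. Pdgfra exceeded it in mOCd alone, at 19.9. The part of such cells in the values of Alpl was not tested.

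Of the 6 members with a probe set, Xpr1 and Ank were counted as higher and Slc20a1 as lower in pOC than in BMM, where 11.1% of all countable genes were higher and 13.1% lower. In mOCp against pOC only Xpr1 was counted, as higher, against 8.77% of genes higher and 11.4% lower, and under 5 alternatives no member was counted. In mOCd against pOC it was again only Xpr1, against 10.8% higher and 12.2% lower. In mOCd against mOCp no member was counted at 2-fold, against 2.2% of genes higher and 2.55% lower. Xpr1 passed at 1.5-fold, where 636 of 6913 countable genes were higher and 525 lower. Of 7789 genes that reached the 75th percentile on at least 1 array, 12.5% were higher at every step by any size, as Xpr1 and Ank were in the set, and 1.26% were at least 2-fold higher both in pOC against BMM and in mOCp against pOC, as Xpr1 was. Over the whole course Xpr1 and Ank were counted as higher and Slc20a1 as lower in both mature arrays, beside 16.8% of genes higher and 19.3% lower for mOCp against BMM, and 18.8% higher and 20.3% lower for mOCd against BMM. Slc20a1 lost both calls when suffixed probe sets were left out, since the probe set then read was too dim in BMM, and lost that of mOCd also with the mean over probe sets (log2 ratio −0.99). The median log2 ratio of the 6 members was 0.85 in pOC against BMM, beside 0.09 over all genes with a ratio, and it was 0.26 in mOCp against pOC, −0.07 in mOCd against pOC and 0.00 in mOCd against mOCp, beside 0.01 over all genes in each of these. Since these contrasts chose the members, the counts are given for orientation only.

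**Figure D2:**
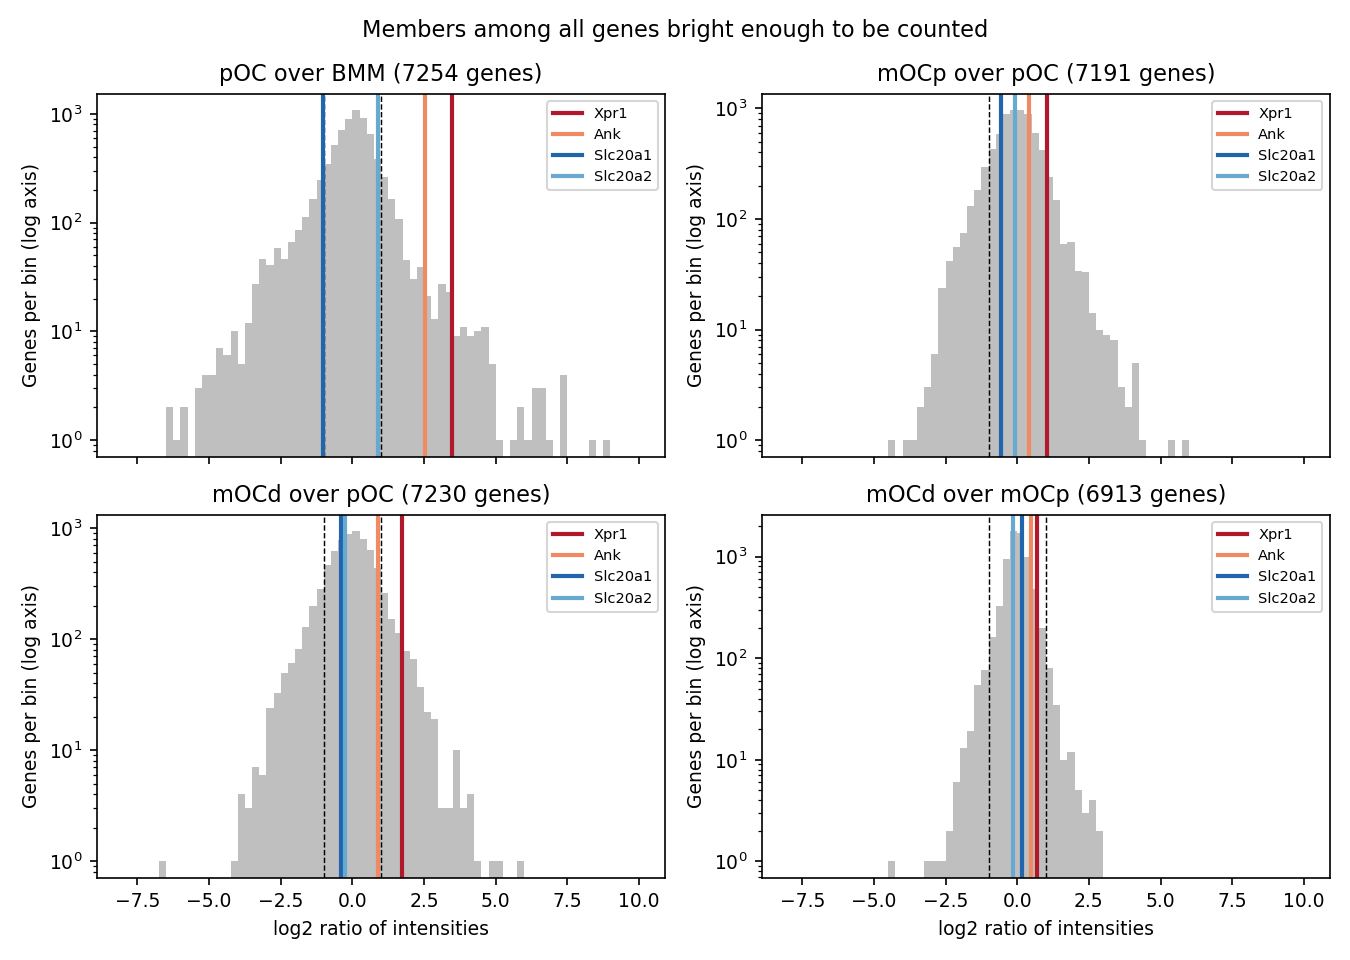
Number of genes (log axis) by log2 ratio of intensities in 4 comparisons, for genes whose brighter value reached the 75th percentile, with coloured lines at the 4 members bright enough to be counted and dashed lines at 2-fold. Xpr1 lies at 3.48 and Ank at 2.55 in pOC over BMM, far in the right tail, and Slc20a1 at −1.02, while all 4 lie within 2-fold in mOCd over mOCp.

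The 7 probe sets of Xpr1 pointed the same way in pOC against BMM, where measured, but not in mOCd against mOCp. Of the 7, 6 were above the floor on all 4 arrays, and the seventh, 1444168_at, exceeded the floor in mOCd alone, at 20.1. All 6 were at least 2-fold higher in pOC than in BMM, with log2 ratios from 2.19 to 3.75. In mOCp against pOC 5 of 6 were higher, and in mOCd against pOC also 5 of 6. In mOCd against mOCp the 6 log2 ratios ran from −1.49 to 1.85, with an SD of 1.10, and 3 of the 6 probe sets were higher at every step.

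Probe set 1437958_at had 286.7 in mOCd and 79.6 in mOCp, and 1426053_a_at had 299.5 in mOCd and 842.5 in mOCp. The first was thus 3.60-fold higher on dentin and the second 2.81-fold lower. Probe sets 1426993_at, 1450130_at and 1452271_at, all far above the 75th percentile in both mature arrays, differed between mOCd and mOCp by log2 ratios of 0.13, −0.15 and 0.02. Among 705 genes with 4 or more probe sets measured in both arrays, whose median SD was 0.41, 8 had an SD as large as that of Xpr1 or larger. Whether Xpr1 is higher on dentin than on plastic therefore differed between its probe sets, and the direction depends on which of them is read.

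Kidins220 encodes a membrane scaffold that in human cells forms a complex with XPR1 and is needed for phosphate export. Its brightest probe set, 1433852_at, had 404.8 in BMM, 1305.1 in pOC, then 2565.8 in mOCp and 4298.0 in mOCd. The gene was 3.22-fold higher in pOC than in BMM (log2 ratio 1.69) and 3.29-fold higher in mOCd than in pOC (log2 ratio 1.72). In mOCp it was 1.97-fold higher than in pOC, just under the limit, and with the mean over probe sets it was just past it (log2 ratio 1.04). It thus stood in the same order over the arrays as Xpr1, lowest in macrophages and highest on dentin.

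Its 4 probe sets were all above the floor on every array and all higher in pOC than in BMM, by log2 ratios of 0.77 to 2.00, and all higher in mOCp than in pOC, by 0.92 to 1.33. On dentin they parted as those of Xpr1 did. Probe set 1430449_at had 104.6 in mOCd against 275.8 in mOCp (log2 ratio −1.40), and 1455762_at had 150.5 in mOCd against 45.6 in mOCp (log2 ratio 1.72). The SD over the 4 was 1.36, a value that 4 of the 705 genes reached, Kidins220 included. On the same arrays the ratio of the 3′ to the 5′ control probe set of the transferrin receptor was higher in mOCd, at 1.70 on the log2 scale, than in BMM, pOC and mOCp, at 0.84 to 1.01, and that of pyruvate carboxylase, a dim control, was 0.42 in mOCd and −0.81 to −0.19 in the other 3. That of 18S RNA was highest in mOCp, at 1.46, with 1.19 in mOCd, while Gapdh lay between −0.43 and −0.29 and actin between 0.16 and 0.29 on all 4. The part of these differences in the spread between probe sets was not tested.

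**Figure D3:**
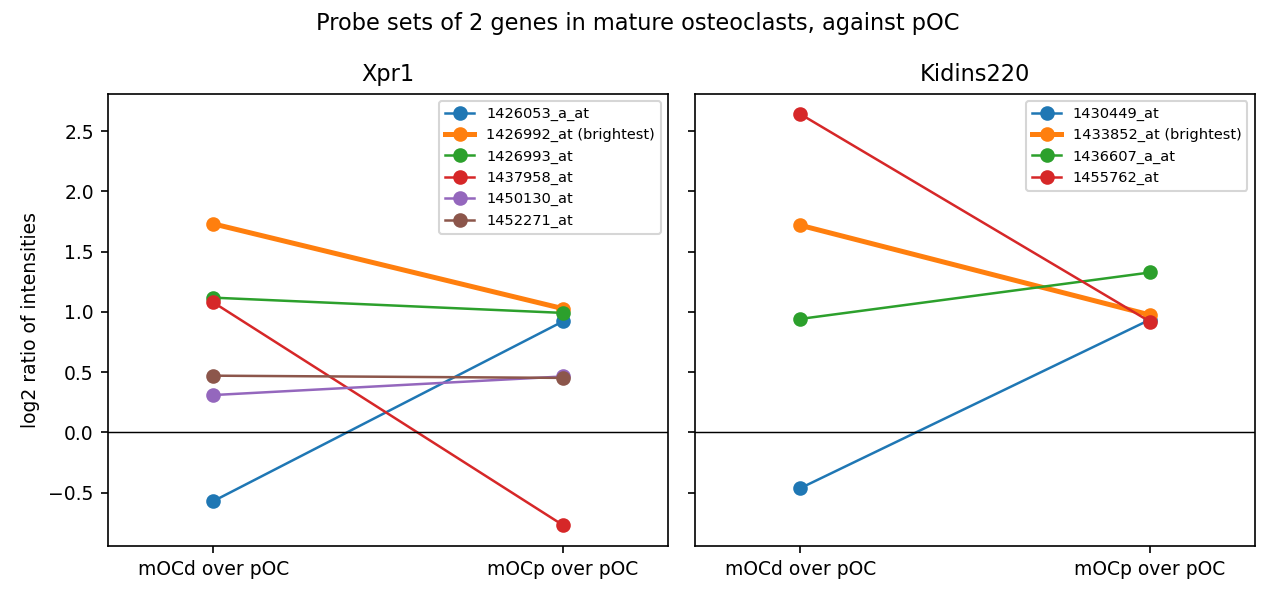
Log2 ratio of intensities in mOCd over pOC (left) and mOCp over pOC (right) for the 6 Xpr1 and 4 Kidins220 probe sets above the floor on all arrays, each probe set joined by a line, the brightest drawn thick. The lines cross: 1426053_a_at of Xpr1 and 1430449_at of Kidins220 are below 0 on dentin and above 0 on plastic, and 1437958_at of Xpr1 is above 0 on dentin and below 0 on plastic.

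XPR1 is gated in human cells by inositol pyrophosphates, small signalling molecules made by the IP6K and PPIP5K kinases. Of 12 genes in the list that holds these kinases, related enzymes and Kidins220, 9 were measured. Of these, 7 were bright enough to be counted in pOC against BMM, and 2 were counted as higher, Kidins220 and Ippk, which makes the precursor of the inositol pyrophosphates, and none as lower. Over all genes 11.1% were higher and 13.1% lower there. The 9 measured genes had a median log2 ratio of 0.60 beside 0.09 over all genes. Ippk had 35.6 in BMM, 93.2 in pOC, 43.0 in mOCp cultures and 55.3 in mOCd, so its level in pOC stood above the other 3. It was 2.17-fold lower in mOCp than in pOC, the only gene of the list counted there, beside 11.4% of all genes lower, and was not counted with a constant of 16 in place of the floor (log2 ratio −0.89). In mOCd 2 of 8 bright enough were counted as higher than in pOC, Kidins220 and the kinase gene Ppip5k1, beside 10.8% of all genes higher and 12.2% lower. Ppip5k1 had 37.8, 57.4, 82.9 and 116.8 over BMM, pOC, mOCp and mOCd, but its other probe set stayed between 35.1 and 41.3, and under 4 alternatives the gene was not counted (log2 ratios of mOCd to pOC 0.56 to 0.90). No gene of this list was counted in mOCd against mOCp. Over the whole course 7 were bright enough. Kidins220, Ppip5k1 and the inositol phosphate multikinase gene Ipmk were counted as higher in both mature arrays than in BMM, and none as lower. Over all genes 16.8% were higher and 19.3% lower for mOCp, and 18.8% higher and 20.3% lower for mOCd.

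Among 11 other phosphate carriers, 7 were measured and 3 were bright enough to be counted in a single step. There 1 was counted, Slc37a2, as higher in pOC than in BMM, beside 11.1% of all genes. Slc37a2 encodes a membrane carrier that exchanges sugar phosphates for phosphate. It had 658.4 in BMM, 3796.2 in pOC, then 5421.6 in mOCp and 5976.6 in mOCd, and was 5.77-fold higher in pOC than in BMM (log2 ratio 2.53). The mitochondrial phosphate carrier gene Slc25a3, with 3369.9 in BMM, 5605.0 in pOC, 7316.4 in mOCp cultures and 6866.9 in mOCd, did not reach 2-fold in any step on its brightest probe set. Its log2 ratio of pOC to BMM was 0.73. The other probe set, 1440302_at, was too dim to count, with 29.0, 45.1, 18.5 and 46.3 in the same order. It was 2.44-fold lower in mOCp than in pOC and 2.50-fold higher in mOCd than in mOCp. For mOCp against BMM its log2 ratio was −0.65. Over the whole course 4 were bright enough, and 3 were counted as higher and 1 as lower in each mature array than in BMM, beside 16.8% of all genes higher and 19.3% lower for mOCp and 18.8% higher and 20.3% lower for mOCd. Higher were Slc37a2, Slc37a4 and Slc25a3, the last 2.04-fold in mOCd and 2.17-fold in mOCp on its brightest probe set. Lower was Slc37a3, a relative of Slc37a2, with 87.5 in BMM, 53.2 in pOC, then 35.4 in mOCp and 39.7 in mOCd. This gene was 2.20-fold lower in mOCd and 2.47-fold lower in mOCp than in BMM, where its value lay just past the 75th percentile of 87.0. Its other probe set, 1424920_at, went the other way, under the floor in BMM and pOC and at 18.1 in mOCp and 19.1 in mOCd.

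Of 12 genes of pyrophosphate and extracellular ATP, 9 were measured and 4 were bright enough to be counted. In single steps Ppa1 alone was counted, higher in pOC than in BMM, beside 11.1% of all genes, and lower in both mature arrays than in pOC, beside 11.4% for mOCp and 12.2% for mOCd. This gene encodes the cytosolic pyrophosphatase, which cleaves pyrophosphate inside the cell. It had 519.9 in BMM, 1412.4 in pOC, then 535.3 in mOCp and 500.9 in mOCd, a peak in pre-osteoclasts that was 2.72-fold above BMM. In mOCp it was 2.64-fold lower than in pOC and in mOCd 2.82-fold lower. Its mitochondrial counterpart Ppa2 had 197.9, 319.7, 341.3 and 435.9 over BMM, pOC, mOCp and mOCd and was not counted in any step, but over the whole course it was counted as 2.20-fold higher in mOCd than in BMM, beside 18.8% of all genes higher.

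Of 10 genes of systemic phosphate regulation, 4 were measured and 2 were bright enough to be counted. Both were, Fgfr1 as higher and Fam20c as lower in pOC than in BMM, beside 11.1% of all genes higher and 13.1% lower, and Fam20c as higher in mOCp than in pOC, beside 8.77%. Against BMM, Fgfr1 was also counted as higher in both mature arrays, and Fam20c as lower in mOCd but not in mOCp. Over all genes 16.8% were higher for mOCp, and 18.8% higher and 20.3% lower for mOCd. Fgfr1, a receptor through which the phosphate hormone FGF23 acts together with Klotho, was under the floor in BMM at 12.0 and had 128.4 in pOC, 108.5 in mOCp cultures and 164.9 in mOCd, at least 10.1-fold higher in pOC than in BMM. The further probe set 1424050_s_at gave at least 8.54-fold, while 1436551_at was barely above the floor in pOC, at 14.7, and the gene was not counted when suffixed probe sets were left out or the probe sets were averaged. Fam20c, the kinase that phosphorylates secreted proteins including FGF23, had 218.9 in BMM, 54.1 in pOC, then 137.6 in mOCp and 101.6 in mOCd. It was 4.05-fold lower in pOC than in BMM and 2.54-fold higher in mOCp than in pOC. With the mean over probe sets neither was counted (log2 ratios −1.38 and 0.58), and with spike-in scaling mOCp over pOC was not (0.92). The hormone gene Fgf23 exceeded the floor on 1 array, pOC, at 16.3, and the brightest probe sets of Kl, Phex, Dmp1, Mepe, Pth1r and Vdr did so on none.

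**Figure D4:**
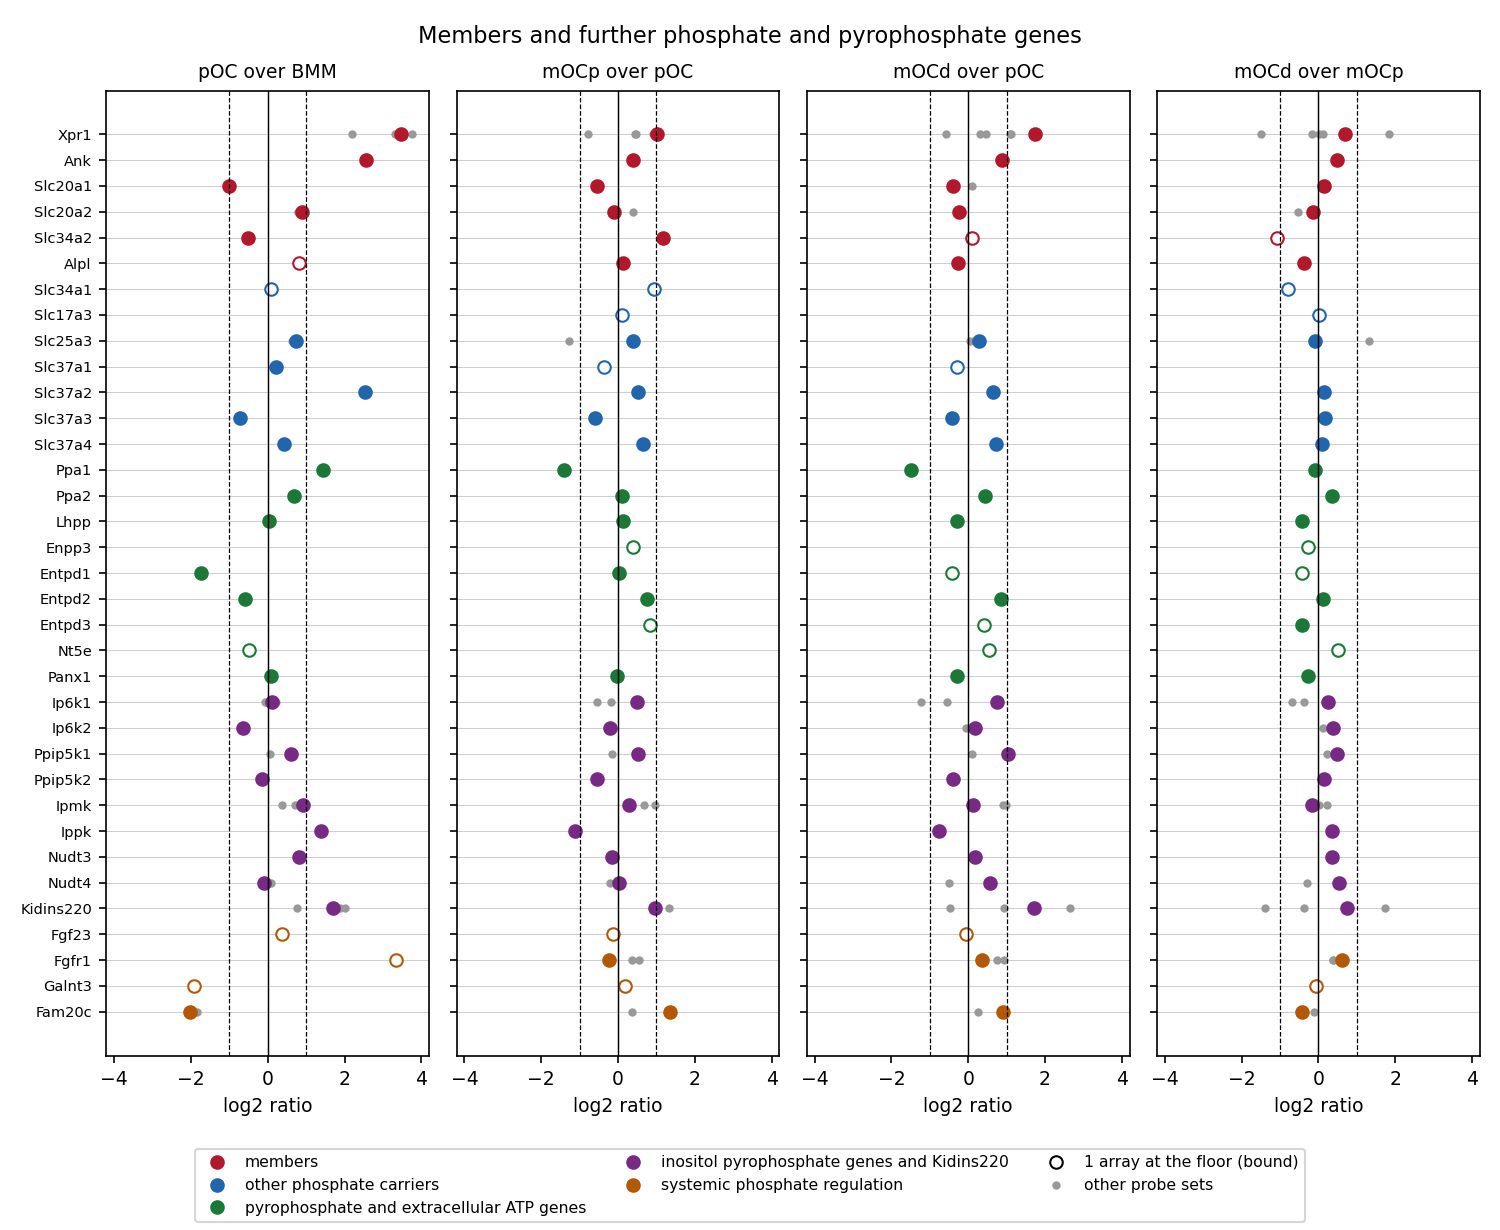
Log2 ratio of intensities in 4 comparisons for the members and the measured genes of 4 further lists, with the brightest probe set as a large dot (open where 1 of the 2 arrays was at the floor), other measured probe sets in grey and dashed lines at 2-fold. Xpr1, Ank and Slc37a2 lie beyond 2-fold on the right in pOC over BMM, Ppa1 lies right of 0 there and left of 0 in both comparisons of mature cells with pOC, and in mOCd over mOCp the large dots stay within 2-fold but for Slc34a2, which was under the floor in mOCd.

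Genes were then ranked by how closely their log2 intensities, centred on the mean of the 4 arrays, followed Xpr1 or Ank, as a distance over 4 arrays. The ranking held 7484 other genes above the floor on all 4 arrays and at or above the 75th percentile on at least 1. Nearest to Xpr1 were Srgap3 at a distance of 0.10, Pip5k1b, a phosphatidylinositol phosphate kinase, at 0.26, C77080 at 0.37, Apbb1, which encodes an adaptor of the amyloid precursor protein, at 0.38, and the adenylate cyclase gene Adcy3 at 0.40. Srgap3, for example, had 25.8 in BMM, 305.4 in pOC, 583.4 in mOCp cultures and 924.9 in mOCd. With the mean over probe sets, which changes the profile of Xpr1 itself, 0 of these 5 stayed among the nearest 50.

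Nearest to Ank were Lpcat1, which encodes a lysophospholipid acyltransferase, at 0.19, the histone demethylase gene Kdm5b at 0.19, Snx10, a sorting nexin mutated in human osteopetrosis, at 0.20, the plexin gene Plxnd1 at 0.22 and Ppp1r12b, a myosin phosphatase subunit, at 0.22. The phosphate carrier gene Slc37a2 came next, at rank 6 and a distance of 0.25. With the mean over probe sets 2 of the 5 stayed among the nearest 50. Ank ranked 69 from Xpr1, Slc37a2 86 and Kidins220 99, at distances of 1.38, 1.49 and 1.57. Counted from Ank, Xpr1 ranked 430 of 7484 and Kidins220 80, at distances of 1.38 and 0.69. The likeness rests on 4 points from the same 4 arrays and is given as a description.

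**Figure D5:**
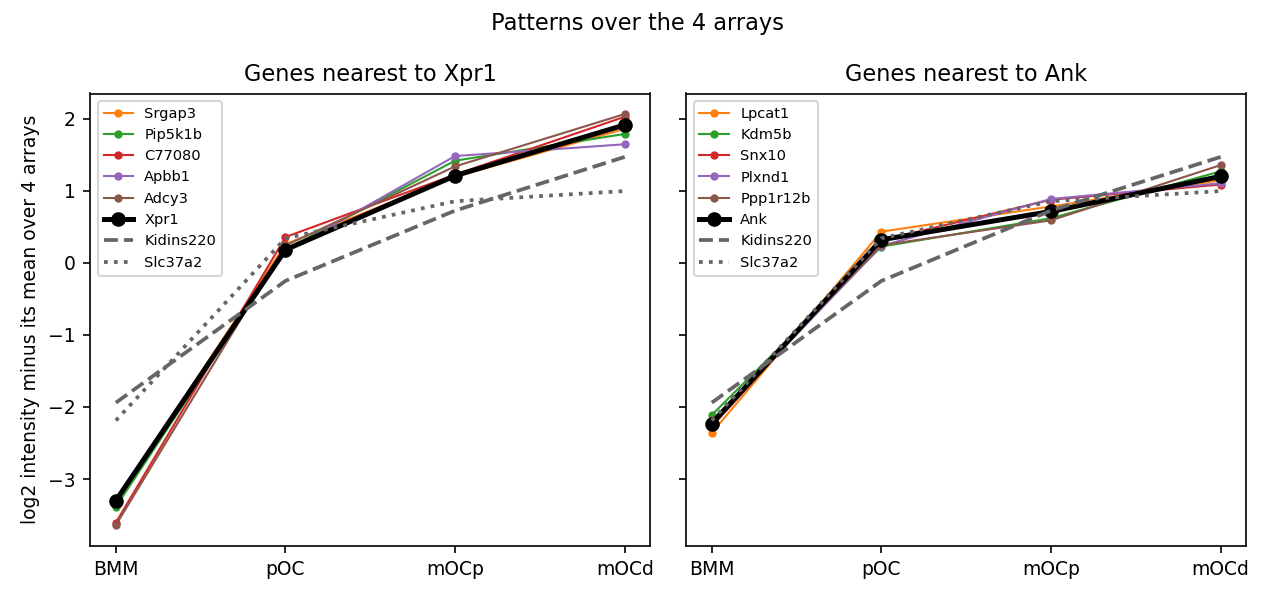
Log2 intensity minus its mean over BMM, pOC, mOCp and mOCd for Xpr1 (left) and Ank (right) in black, their 5 nearest genes in colour, and Kidins220 and Slc37a2 in grey. On the plotted probe sets the log2 ratio of mOCd to BMM is 5.21 for Xpr1 and 3.43 for Ank, but 2 of the other Xpr1 probe sets lie below Ank, at 2.74 and 3.27. Slc37a2 runs close to Ank.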

How the data were processed

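RNA from 4 cultures was hybridised to 1 Affymetrix array each, with biotin-labelled cRNA, per the labels' protocols. The deposited values are linear signal intensities, with MAS5 named in the submitters' processing notes. Its version is not given in the sources used here. Each array of the authors' table has a mean of 100.0 once the highest and lowest 2% are removed, a scaling that removes differences in total mRNA. Probe sets were named from a platform annotation dated 2016, where 34945 of 45037 non-control probe sets carried exactly 1 symbol, 932 several and 9160 were not listed. Of the 34945, 34741 matched RefSeq (GRCm38.p6) by Entrez identifier, all with the same symbol.

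Computed here were floored log2 ratios for 6 comparisons, with floor, 2-fold limit and brightest probe set as described with the results (Python 3.11.15, pandas 2.3.3; limma 3.58.1 for quantile and loess alternatives), and checked on simulated data. No test between groups exists, as there was 1 array per group, and that number limits the precision of every value. The members, gene lists, motifs and rules were chosen with earlier results of these data known. Named were all members, up to 4 genes counted in single steps per further phosphate or pyrophosphate list, and the 5 genes nearest in pattern. Kidins220, Slc25a3, Slc37a2, Ppa1 and Ppa2 were named whatever their values. Genes counted over the whole course alone, such as Slc37a3, were added to these. No lymphoid, erythroid or endothelial marker reached the 75th percentile on any array. Alternatives were other floors, 4 scalings, 2 ways of combining probe sets, an added constant of 16 and a 1.5-fold limit.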

Additional observations from a re-analysis of the deposited data

Results flagged for a closer look

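Among the probe sets of the genes described here, 3 moved in opposite directions in mOCd and in mOCp when each was set against pOC, differed at least 2-fold between mOCd and mOCp, lay above the floor on these 3 arrays and reached the 75th percentile on at least 1 of them. Further probe sets took opposite directions by smaller amounts or at dimmer values. The difference was not tested because each group is 1 array. For Xpr1, probe set 1437958_at had a log2 ratio of mOCd to mOCp of 1.85, being higher in mOCd and lower in mOCp than in pOC. Probe set 1426053_a_at of the same gene had a log2 ratio of mOCd to mOCp of −1.49, with the opposite order. For Kidins220, probe set 1430449_at had a log2 ratio of mOCd to mOCp of −1.40, being lower in mOCd and higher in mOCp than in pOC.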

How the results depend on the processing

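No paired analysis was possible because each group holds 1 array. Of the 10 alternatives, the 1.5-fold limit changes no ratio, and the others kept the direction of every counted member ratio. Of 318 member ratios computed under them 299 moved by less than the disagreement between probe sets. Part of the 318 could not move, so this tally overstates how stable the ratios are. Ank, for example, has 1 probe set far above the floor, and its ratios stay the same under other floors or ways of combining probe sets. In mOCp against pOC 0 members were counted, in place of 1, after median scaling, quantile normalization, cyclic loess, spike-in scaling or with the mean over probe sets. In mOCd against pOC the count was 0 with the mean over probe sets and 2 at 1.5-fold, in place of 1, and in mOCd against mOCp it was 1 at 1.5-fold, in place of 0. With spike-in scaling 1 member was higher at every step, in place of 2. Why these counts moved was not tested beyond what each alternative changes.

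Over all genes, spike-in scaling moved the median log2 ratio by −0.43 in mOCp over pOC and −0.35 in mOCd over pOC. It gave 284 higher and 1653 lower in mOCp over pOC (631 and 820 as reported), 442 and 1596 in mOCd over pOC (779 and 885), 1031 and 785 in pOC over BMM (806 and 953), 195 and 146 in mOCd over mOCp (152 and 176) and 953 and 1953 in mOCp over BMM (1254 and 1442). In mOCd over BMM it gave 1170 and 1839 (1418 and 1529). Median scaling gave 586 and 1213 in pOC over BMM, 594 and 854 in mOCp over pOC and 635 and 1089 in mOCd over pOC. It gave 111 and 230 in mOCd over mOCp, 994 and 1856 in mOCp over BMM and 1050 and 2073 in mOCd over BMM. At 1.5-fold the counts were 1599 and 1613 in pOC over BMM, 1418 and 1609 in mOCp over pOC, 1607 and 1741 in mOCd over pOC, 636 and 525 in mOCd over mOCp, 1962 and 2281 in mOCp over BMM and 2126 and 2305 in mOCd over BMM. The ranking of nearest genes was computed under the alternatives after the data had been seen, and 0 to 5 of the 5 nearest to Xpr1 and 2 to 5 of those nearest to Ank stayed among the nearest 50. Members near the floor, Slc34a2 and Alpl, cannot be followed at this signal over background.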

Other observations

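Further genes of phosphate handling, picked here after their values were seen, were dimmer or differed less. Slc37a4, the glucose 6-phosphate carrier of the endoplasmic reticulum, had 55.9 in BMM, 74.8 in pOC, then 117.2 in mOCp and 124.4 in mOCd and did not reach 2-fold in any step, although it was 2.23-fold higher in mOCd than in BMM. Ipmk, an inositol phosphate multikinase gene, had 117.0, 222.5, 272.6 and 243.8 over BMM, pOC, mOCp and mOCd, and 2 of its 3 probe sets above the floor on all arrays were higher at every step. The gene was 2.08-fold higher in mOCd than in BMM. Entpd1, which encodes the ATP-degrading surface enzyme CD39, had 69.7 in BMM, 21.0 in pOC, 21.2 in mOCp cultures and 4.1 in mOCd, the last under the floor, and was too dim to be counted.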
